A study of Homo sapiens with 47 samples.

Results

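Catalytically dead Cas13 proteins were crosslinked to RNA in human cells that received no guide RNA, and a minority of the listed sites were the same for both proteins tested. Of 4701 crosslinked sites listed for dPspCas13b without a guide, 550 overlapped, by at least 1 nucleotide on the same strand, a site listed for dRfxCas13d without a guide. That is 11.7% of the dPspCas13b list, with an exact Clopper-Pearson 95% interval of 10.8% to 12.7%. The 550 sites, called shared sites here, were chosen by this overlap, so the overlap itself is a description. The partners numbered 395 of 2808 dRfxCas13d sites, or 14.1% of that list. All lists of the series together held 2232378 sites and clusters.

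The series profiled RNA contacts with uSpyCLIP, a crosslinking and purification method, in 47 libraries that fall into 20 groups. The host was Lenti-X 293T, which derives from human embryonic kidney, with stable expression of the protein under study. They received UV-C light at a dose of 400 mJ/cm2 on ice, and their RNA was fragmented with RNase I. The unguided groups were dPspCas13b alone and dRfxCas13d alone after UV, with 3 libraries and 1 site list each. The guided groups used here carried the same proteins with the EZH2-directed guides EZH2g1 or EZH2g2, also after UV. PTBP1 clusters came from cells expressing that protein, in 4 lists made from 10000000, 100000, 10000 and 1000 cells, and RBFOX2 clusters from 10000000 cells. Lists from cells without UV and from non-targeting guides were not analysed here, so whether the unguided sites depend on UV was not tested. Each list gives positions and strand with no read count or score, so the depth behind a site is unknown, replicate spread cannot be given, and no comparison carries a p-value. Intervals below are exact Clopper-Pearson intervals at 95% and cover counting error only. Neighbouring sites in a gene share their RNA and are not independent, so the intervals are too narrow.

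Cas13 enzymes are the RNA-guided RNases of type VI CRISPR systems. PspCas13b comes from Prevotella and RfxCas13d from Ruminococcus flavefaciens. The proteins belong to different subtypes and hold their guides in different ways, and the dead forms (d) keep the ability to bind RNA without cutting it. PTBP1 is a splicing and RNA stability regulator that binds pyrimidine-rich tracts, and RBFOX2 is a splicing regulator that binds GCAUG elements. Both serve here as the series' own maps of ordinary RNA-binding proteins.

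Sequences under the sites could be read only where a site met a promoter window or a miRNA of RefSeq (GRCh38.p14), since no genome sequence was used here. Of the 550 shared sites, 5 met a promoter window of any gene, 3 of them that of their own gene, and 1 lay over a miRNA hairpin. Among all 4701 dPspCas13b sites, 42 met a promoter window of any gene and 4 met a hairpin. The 3 promoters of own genes are shown because the shared dPspCas13b site crossed the annotated start. They are the last 60 bases before the annotated start, on the minus strand at chr6:26032100-26032159 (H3C2), chr6:26189113-26189172 (H4C4) and chr9:110256508-110256567 (TXN), with the bases under the dPspCas13b site in capitals.
H3C2: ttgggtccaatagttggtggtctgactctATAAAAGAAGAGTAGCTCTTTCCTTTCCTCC
H4C4: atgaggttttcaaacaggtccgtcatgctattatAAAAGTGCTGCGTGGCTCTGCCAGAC
TXN: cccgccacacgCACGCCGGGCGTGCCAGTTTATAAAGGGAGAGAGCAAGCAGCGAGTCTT
The site covered 31 of the 60 bases in H3C2, 26 in H4C4 and 49 in TXN, and then ran on into the gene. The dRfxCas13d partner also crossed the start in H3C2 (chr6:26031998-26032140) and TXN (chr9:110256399-110256572), whereas in H4C4 it lay inside the gene (chr6:26188921-26189055). H3C2 and H4C4 encode the core histones H3 and H4, and TXN encodes thioredoxin, a thiol reductant of the cytosol. The letters TATAAA, searched on both strands (TTTATA on the other), were present in all 3 of these windows and in 3.75% of the 35116 windows of the table. The match is a description of these letters only.

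The miRNA hairpin under a shared site was MIR198, inside FSTL1, which encodes a secreted follistatin-like glycoprotein. The mature miRNA, at chr3:120395703-120395724 on the minus strand, lay whole under the site at chr3:120395687-120395818. Capitals mark its seed, bases 2 to 8.
hsa-miR-198: gGUCCAGAggggagauagguuc
Both dPspCas13b sites and both dRfxCas13d sites of FSTL1 were shared and formed 1 stretch, 3460 to 3520 nt from the 3′ end of the gene at the dPspCas13b midpoints.

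The rule itself required an overlap, so how closely the pairs fit is a description. The 550 and 395 sites formed 629 overlapping pairs with a median overlap of 115 nt (quartiles 73 and 130, range 1 to 274). The dPspCas13b site lay wholly inside its dRfxCas13d partner in 298 pairs (47.4%), and the reverse held in 16 pairs (2.54%). The dPspCas13b sites were also the narrower ones, with a median of 127 nt against 179 nt for the dRfxCas13d partners. The dRfxCas13d site extended further 5′ in 177 staggered pairs and further 3′ in 138. Midpoints were a median of 41.5 nt apart and within 50 nt of each other in 353 pairs (56.1%). Of the 550 sites, 448 had at least 50% of their length under 1 partner and 298 had all of it.

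Shared sites were slightly wider than unshared ones, with medians of 127 and 124 nt for dPspCas13b and 179 and 171 nt for dRfxCas13d. Of dPspCas13b sites below 120 nt, 149 of 1667 were shared. From 120 to 139 nt it was 260 of 2084, and from 140 nt 141 of 950, so wider sites were more often shared. On the opposite strand, 1 dPspCas13b site, an unshared one, overlapped a dRfxCas13d site. The stretches just inside the rule were in NOLC1, with 2 nt in common, UBE2D3, with 6 nt, and ADAR and SMIM7, with 8 nt each. Just outside it, a dPspCas13b site in PIGT abutted a dRfxCas13d site with a gap of 0 nt, and sites in TMBIM6, HSPA9, DIAPH1 and RPS20 missed one by 2 nt. Of 4151 unshared dPspCas13b sites, 139 (3.35%) lay less than 100 nt from a dRfxCas13d site on the same strand.

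Merged where they touched, the shared sites and their partners formed 346 stretches of RNA with a median width of 225 nt, of which a median of 129 nt (quartiles 114 and 158) was covered by both proteins. A single dPspCas13b site made up 222 stretches, and the most crowded stretch held 8. The stretch with the longest run covered by both proteins was in PSAP, which encodes prosaposin, the lysosomal sphingolipid activator precursor: 452 nt at chr10:71816812-71817263 in a stretch of 6 dPspCas13b and 3 dRfxCas13d sites. HINT1, a purine nucleoside phosphoramidase, followed with 343 nt (chr5:131159322-131159664). HSP90AA1, the inducible cytosolic HSP90, had 337 nt in 1 run (chr14:102081242-102081578). TOMM20, the import receptor of the outer mitochondrial membrane, had 304 nt, and ARF4, a small GTPase of Golgi traffic, had 289 nt. All 5 stretches lay on the minus strand, at median distances of 467 to 1752 nt from the annotated 3′ end of the gene.

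The 550 sites fell in 280 genes, and 540 of them (98.2%) were in protein-coding genes, the same percentage as for unshared sites (4077 of 4151, 98.2%). Most genes held a single one: 163 genes held 1, 58 held 2, and the 59 genes with 3 or more held 269 of the 550. The 10 leading genes held 81 sites (14.7%). TOMM20 led with 12 of its 18 dPspCas13b sites and all 4 of its dRfxCas13d sites shared. ATP5F1B, the beta subunit of ATP synthase, had 11 of 13 and 7 of 9 shared, spread over 6 stretches, the most of any gene. HSPA8, the constitutive HSC70 chaperone, had 11 of 12 and 5 of 5. These 3 genes differed from NUCKS1, a nuclear DNA-binding phosphoprotein gene, where 8 of 33 dPspCas13b sites were shared with 5 of 6 dRfxCas13d sites.

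Further leaders were ARF4 (8 of 12 dPspCas13b sites shared), PLS3, which encodes the actin bundler plastin 3 (7 of 14), BIRC5, which encodes survivin, a member of the chromosomal passenger complex (6 of 8), CCT4 of the TRiC chaperonin (6 of 13), and PPP1CC, a catalytic subunit of protein phosphatase 1 (6 of 9). TMED2, ATP6V0B, PSAP and STMN1 also held 6. In ATP6V0B, which encodes a subunit of the proton-pumping V-ATPase, all 6 dPspCas13b sites overlapped 1 dRfxCas13d site in 1 stretch 92 to 246 nt from the 3′ end. The 6 shared sites of STMN1 likewise overlapped 1 dRfxCas13d site, and the 8 of ARF4 lay in 1 stretch with 2.

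Both proteins had unguided sites in 734 of the 3274 genes with a site of either. Of these 734, 38.1% held a shared site. Among the 453 protein-coding genes with both proteins and no overlap, the nearest sites of the pair were a median of 3322 nt apart (quartiles 614 and 12619), and in 35 they were less than 100 nt apart. CDK2, the cell-cycle kinase, had the most sites without any overlap, 14 for dPspCas13b and 1 for dRfxCas13d with a gap of 2080 nt. RPRD1A, a regulator bound to the RNA polymerase II tail, followed with 10 and 1. The activin receptor gene ACVR2B, the cyclin T1 gene CCNT1 and the glycan-sensing EDEM1 had 8 and 2 each, with gaps of 250, 181 and 429 nt. The share of dPspCas13b sites that were shared was higher in genes with more of them: 6.01% in genes with 1 dPspCas13b site, 11.4% with 3 or 4, and 21.8% (18.3% to 25.6%) with 10 or more. For dRfxCas13d it was 7.54% in genes with 1 site and 32.8% in genes with 5 to 9, but 3 of 23 sites (13.0%) in genes with 10 or more. The lists carry no transcript level, so the part of transcript abundance in these shares was not tested. Sites within a list also overlap one another: merged, the 4701 dPspCas13b sites became 3436 and the 2808 dRfxCas13d sites 2663. Stacked sites over 1 partner each counted as shared in these shares and in the site counts per gene and per list. Those were not repeated on merged sites.

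By function, chaperone and ribosomal protein genes held many shared sites, set against 274 of 20033 protein-coding genes (1.37%) with a shared site and 8.53% of those with a site of either protein. Of 32 chaperone and folding genes, 15 held a shared site (57.7% of the members with any site), and 43 of their 101 dPspCas13b sites were shared (42.6%, against 11.7% in all protein-coding genes). HSPA8 (11 sites) and CCT4 (6) led, with CCT8 and PDIA6 at 4, PTGES3 and HSP90AA1 at 3. The chaperonin subunits CCT7, CCT5 and TCP1, the HSP70 proteins HSPA5 (endoplasmic reticulum) and HSPA9 (mitochondria), and the disulfide isomerases P4HB and PDIA3 each held 1 or 2. Of the 7 members with both proteins and no shared site, HSP90B1, the HSP90 of the endoplasmic reticulum, had 8 dPspCas13b and 2 dRfxCas13d sites with a gap of 278 nt.

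Ribosomal protein genes held shared sites in 20 of 87 members (38.5% of those with any site), with 32 of 95 dPspCas13b sites shared (33.7%). RPL35A (4 of 4), RPS15A (4 of 5) and RPL34 (3 of 3) led, RPS20, RPLP1, RPL23 and RPS4X had 2, and the other 13 had 1 each. Translation factor genes followed with 10 of 70 members (27% of those with any site). PABPC1, the poly(A)-binding protein gene, had 5 of 9 sites shared and EIF3H, a subunit of the scaffold factor eIF3, had 5 of 6. Many of these genes have processed pseudogenes, and histone genes have near-identical copies, so reads could have been split or lost there. How the mapping treated such reads is not known here.

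The respiratory chain and ATP synthase list had 9 of 98 members with a shared site (21.4% of those with any site). ATP5F1B gave 11 of the 27 shared sites. COX7A2L, which joins respiratory complexes, had 5 of 6 sites shared, and ATP5F1A, the alpha subunit, had 4 of 7. The replication-dependent histones had 4 of 70 members (H4C2, H4C4, H4C5 and H3C2), 23.5% of those with any site, with 7 of 18 sites shared. The replication and chromatid list had 7 of 23 (41.2% of those with any site). Among them were the DNA repair kinase gene PRKDC (4 of 13), the topoisomerase gene TOP2A (3 of 4) and PCNA, the sliding clamp gene (2 of 2). In the cohesin gene SMC1A, by comparison, 1 of 15 was shared.

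hnRNP genes, which encode nuclear RNA-packaging proteins, held shared sites in 7 of 31 members, led by HNRNPA2B1 (4 of 6). SR protein genes, which encode splicing activators, held them in SRSF9 and SRSF7, 2 of 14. The nuclear transport list had 5 of 50, with KPNB1, the importin beta gene, at 2 of 14 sites. The vesicle traffic list, drawn largely by gene-name patterns such as SEC and RAB, had 5 of 135. SEC61B and RAB5IF held 3 each of its 9 shared sites. Both entered by name alone, so the list's title need not describe what they do. The aminoacyl-tRNA synthetases had 4 of 23, with IARS1 at 1 of 3 dPspCas13b but 10 dRfxCas13d sites, 2 of them shared. The ubiquitin and E2 list had 4 of 43 (SUMO2, UBE2D3 and UBE2M among them), actin and tubulin 3 of 19 (TUBA1B, ACTG1, TUBA1C) and mitochondrial import and carriers 3 of 32 (TOMM20, SLC25A3, TOMM22). Of members with any site, the shares were 36.8% (hnRNP), 20% (SR), 18.5% (nuclear transport), 10% (vesicle traffic) and 30.8% (synthetases). They were 21.1% (ubiquitin and E2), 37.5% (actin and tubulin) and 23.1% (mitochondrial), against 8.53% of all protein-coding genes with a site.

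The high mobility and nuclear protein list had 2 of 21 (NUCKS1 and SET), the 14-3-3 list 1 of 6 (YWHAZ), glycolysis 1 of 17 (PGK1) and the RNA helicases 1 of 54 (DDX3X, 2 of 11 sites). Of members with any site these were 11.8%, 20%, 8.33% and 5.88%, so glycolysis and the helicases did not exceed the 8.53% of all bound protein-coding genes. None of 40 proteasome subunit genes held a shared site, although 18 had a site of at least 1 protein, with 25 dPspCas13b and 14 dRfxCas13d sites in all. With 8.53% of bound protein-coding genes holding one, a count of 0 among 18 is near the background. None of 14 structured small RNA genes had any unguided site, and 16821 of 20033 protein-coding genes had none either.

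Outside protein-coding genes there were 10 shared sites. ZFAS1 held 3 and the small nucleolar RNA host genes SNHG16, SNHG5 and GAS5 held 1 each, all of them noncoding hosts of small nucleolar RNAs. Of the long noncoding list this was 3 of 19 members (42.9% of those with any site), ZFAS1 not being on it. SNORD133 and SNORA69, themselves small nucleolar RNA genes, held 1 each at chr12:50456641-50456778 and chrX:119787335-119787460. Both genes had no known strand here, so their sites were placed by position alone. A pair of sites, at chr7:106642127-106642235 and chr1:246794416-246794526, both on the minus strand, fell in no annotated gene of their strand. Both of these and 5 of the other 8 overlapped a PTBP1 cluster of 10000000 cells.

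Measured in nt, shared sites lay closer to the 3′ end of their gene than unshared ones. Of these, 290 of 540 shared sites in protein-coding genes (53.7%, 49.4% to 58.0%) lay in the last 2000 nt of the annotated gene, against 46.9% of all such dPspCas13b sites and 46.0% (44.4% to 47.5%) of unshared ones. In the last 1000 nt the shares were 40.2% and 29.7%, and in the last 500 nt 22.6% and 16.0%. The median distance from the 3′ end was 1686 nt (quartiles 543 and 5340) for shared and 2381 nt (799 and 8617) for unshared sites. Counted as a fraction of the gene the order turned, with 49.3% of shared and 52.8% of unshared sites in the last 10% of the span. The genes themselves were shorter: the median span was 20903 nt for genes with a shared site and 37152 nt for genes with an unshared one, and 28.1% of shared against 15.0% of unshared sites lay in a gene under 10000 nt.

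The start of the gene was also nearer. Shared sites lay in the first 2000 nt in 51 of 540 cases (9.44%, 7.11% to 12.2%) and unshared sites in 5.13% (4.47% to 5.85%), while unshared sites of the same genes stood at 8.29% (6.18% to 10.8%), within the interval of the shared ones. In the last 2000 nt, unshared sites of the same genes stood at 45.4% (41.3% to 49.6%) against 53.7% for the shared ones, and these intervals overlap. Gene by gene, in 96 of 184 genes with both kinds of site (52.2%, 44.7% to 59.6%) the shared sites had the smaller median distance from the 3′ end.

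For dRfxCas13d the difference in position was larger. Of its shared sites 50.8% (45.7% to 55.9%) lay in the last 2000 nt, against 28.6% (26.8% to 30.5%) of its unshared sites and 21.4% (16.4% to 27.1%) of unshared sites in the same genes. In 90 of 138 genes with both kinds (65.2%, 56.6% to 73.1%) the shared ones were nearer the end. The median distances were 1902 nt for shared and 5860 nt for unshared sites. Read the other way, 25.9% of dRfxCas13d sites within 500 nt of the 3′ end were shared and 5.69% of those 20000 nt or more away. The corresponding shares of dPspCas13b sites were 15.8% and 7.51%. By the rule, the shared dRfxCas13d sites lie on dPspCas13b sites, and 46.9% of all dPspCas13b sites in protein-coding genes were in the last 2000 nt. The dRfxCas13d differences therefore also carry the difference in position between the lists of both proteins, and these parts were not separated.

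Individual genes departed from this pattern. In ATP5F1B none of the 11 shared sites lay in the last 2000 nt and 5 lay in the first 2000 nt of a span of 7810 nt. RPL35A and RPS15A each had 3 of 4 shared sites in the first 2000 nt. Over the ribosomal list 14 of 32 shared sites lay in the first 2000 nt and 13 in the last 2000 nt, a sum that includes sites counted in both where a gene is short. By contrast, all 8 sites of ARF4, all 6 of BIRC5 and 7 of 8 in NUCKS1 lay in the last 2000 nt. STMN1, the gene of the tubulin-binding protein stathmin, had its 6 shared sites 16495 to 16723 nt before the annotated end. That end is the outermost one of any RefSeq transcript, so a site near the end of a shorter transcript counts as distant.

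Shared sites lay on the minus strand in 363 of 550 cases (66.0%, 61.9% to 70.0%), against 51.6% (50.1% to 53.2%) of unshared sites and 59.4% (55.3% to 63.4%) of unshared sites in the same genes. Counted by stretch it was 205 of 346 (59.2%, 53.9% to 64.5%), and by gene 157 of 277 with a known strand (56.7%, 50.6% to 62.6%). Genes with a dPspCas13b site and none shared stood at 51.9% (49.5% to 54.2%), and protein-coding genes of known strand at 49.4%. Of the 10 leading genes, PLS3 and BIRC5 are on the plus strand and the other 8 on the minus strand. The excess was thus smaller when each gene counted once.

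PTBP1 clusters met shared sites more often than unshared ones. Of the 550 shared sites 370 (67.3%, 63.2% to 71.2%) overlapped a cluster of the 10000000-cell list, against 50.6% of all dPspCas13b sites and 48.4% (46.9% to 49.9%) of unshared ones. Much of that difference went with the gene: unshared sites in genes that also held a shared one overlapped PTBP1 in 62.8% (58.7% to 66.7%), and these intervals overlap. Among 184 genes with both kinds of site, the shared ones overlapped PTBP1 in a larger share in 58, in a smaller share in 37 and in an equal share in 89. The dRfxCas13d partners showed a wider gap. Of these 70.6% (65.9% to 75.1%) overlapped PTBP1, against 36.6% of all dRfxCas13d sites, 31.0% (29.2% to 32.9%) of unshared sites and 46.7% (40.3% to 53.2%) of unshared sites in the same genes. The partners lie over the 550 shared sites by the rule, so their 70.6% is not an independent observation. The wider gap also carries the lower PTBP1 overlap of dRfxCas13d sites as a whole, 36.6% against 50.6% for dPspCas13b.

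The other PTBP1 lists, which hold fewer clusters, gave lower shares in the same order. For 100000 cells the share of shared sites was 48.9%, with 32.5% for all dPspCas13b sites and 41.3% for unshared sites of the same genes. For 10000 cells these were 46.7%, 29.4% and 42.8%, and for 1000 cells 15.6%, 8.47% and 13.8%. RBFOX2 clusters gave 23.6% for shared sites, 14.9% for all and 22.9% (19.5% to 26.5%) for unshared sites of the same genes. PTBP1 and RBFOX2 thus ran in parallel for these sites. For dRfxCas13d, RBFOX2 overlapped 25.1% (20.9% to 29.6%) of shared and 5.59% (4.71% to 6.59%) of unshared sites. These shared sites again lie over the shared dPspCas13b sites, so their share is not independent of the 23.6% above.

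A wider site has more room for a cluster, so the shares were also taken within classes of width. Below 120 nt, 57.7% of shared and 40.6% of unshared dPspCas13b sites overlapped PTBP1, from 120 to 139 nt 70.4% and 51.9%, and from 140 nt 71.6% and 55.1%. Position in the gene moved with the overlap as well. In the last 2000 nt 76.9% (71.6% to 81.6%) of shared and 59.5% (57.2% to 61.7%) of unshared sites overlapped PTBP1, and further from the end 56.0% (49.6% to 62.2%) and 38.6% (36.5% to 40.7%).

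Around the middle of the stretches, PTBP1 clusters peaked. There were 72.3 clusters per 100 stretches in the 50 nt before the centre of the part covered by both proteins and 70.5 in the 50 nt after it. The counts stayed higher on the 5′ side: 52.3 per 100 from 100 to 50 nt before the centre against 41.0 from 50 to 100 nt after it. Unshared dPspCas13b stretches had 46.5 and 48.5 in the central bins, and unshared dRfxCas13d stretches 24.1 in both. Within the stretches, PTBP1 clusters covered 19.4% of the 47796 nt under both proteins, 21.9% of the 12417 nt under dPspCas13b alone and 17.0% of the 25908 nt under dRfxCas13d alone. The nucleotides under both proteins were therefore not more covered than those under dPspCas13b alone.

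Single genes ranged from full overlap with PTBP1 to none. Of the 59 genes with 3 or more shared sites, 31 had a PTBP1 cluster under every one and 7 under none. NUCKS1 (8 of 8), PLS3 (7 of 7), PSAP (6 of 6), STMN1 (6 of 6) and CCT4 (6 of 6) were among the former. The stretch in PSAP held 26 clusters, the most of any. At the other extreme, none of the 6 shared sites of ATP6V0B and none of the 5 of EIF3H overlapped a PTBP1 cluster, and 1 of 11 did in ATP5F1B. TOMM20, with 10 of 12, and HSPA8, with 4 of 11, lay between. By list, hnRNP genes had PTBP1 at 11 of 13 shared sites, chaperones at 26 of 43, ribosomal protein genes at 16 of 32 and the respiratory list at 14 of 27. In all, 245 of the 346 stretches (70.8%) held a cluster.

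With a guide, few of these positions were listed again. The guided lists are short, from 59 sites (dPspCas13b with EZH2g1) to 1994 (dRfxCas13d with EZH2g2), against 4701 and 2808 without a guide. Any of the 4 EZH2-guided lists overlapped 17 of the 550 shared sites (3.09%, 1.81% to 4.90%), near the 2.85% of all dPspCas13b sites and the 2.82% (2.34% to 3.37%) of unshared ones. By list, dPspCas13b with EZH2g1 met none of the shared sites (0.0213% of all sites) and with EZH2g2 5 of them (0.909%, 0.296% to 2.11%, against 0.404% of all). The dRfxCas13d lists met 5 with EZH2g1 (0.909% against 1.08%) and 8 with EZH2g2 (1.45% against 1.4%). These shares of dPspCas13b sites lie near the background of all sites or rest on 5 sites. Among dRfxCas13d sites, guided lists met 15 of the 395 shared ones (3.80%, 2.14% to 6.19%). They met 1.95% (1.43% to 2.58%) of unshared dRfxCas13d sites and 0.82% (0.0994% to 2.93%) of those in the same genes. The intervals overlap, and the last share rests on 2 sites.

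PSME3, the gene of the proteasome activator PA28 gamma, held the only shared site that guided lists of both proteins met, both with EZH2g2. The site, at chr17:42842542-42842669 on the plus strand, shared 128 nt with the guided dPspCas13b site and 91 nt with the guided dRfxCas13d site, and lay 1154 nt from the 3′ end. The dPspCas13b list with EZH2g2 also met shared sites in ODC1, the rate-limiting enzyme gene of polyamine synthesis, the replicative helicase subunit gene MCM2 and the importin gene IPO5, by 113, 25 and 127 nt. With EZH2g1, dRfxCas13d met them in RPS15A, LMAN1, MORF4L1, NME1 and TOMM20. With EZH2g2 it met RPLP1 at 2 sites, and RPL23, RPS20, GARS1, HSPA8 and BEX2 at 1 each besides PSME3. At the level of genes, a dRfxCas13d EZH2g2 site anywhere in the gene was found in 12.5% (8.86% to 17.0%) of the 280 genes with a shared site. It was found in 16.7% (13.4% to 20.5%) of the 454 genes with both proteins and none, and the intervals overlap. The shares were 11.4% and 14.3% for dRfxCas13d EZH2g1, 8.93% and 9.69% for dPspCas13b EZH2g2, and 1.07% and 0.661% for dPspCas13b EZH2g1. Protein-coding genes with both proteins and none were also longer, with a median span of 41715 nt against 20903 nt.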

How the data were processed

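Trim Galore 0.0.6 (a read trimmer), STAR 2.7.9a (an aligner) and the build hg38 are named in the submitters' processing notes. The site caller, its thresholds and any pooling of libraries were not given in the sources used here. As deposited, lists hold position and strand only, with no count or score, per the files' columns. Each list is tied to the first library of its group. Overlaps needed 1 nt on the same strand. A site belonged to the gene of its strand, or of unknown strand, that held its midpoint (RefSeq, GRCh38.p14, small genes first, then the shortest). Of the shared sites, 3 lay in genes of unknown strand: SNORD133, SNORA69 and LOC128031832, which counted as protein-coding. Strand came from RefSeq's promoter table (15841 of 20033 protein-coding genes) or, for 1793 more, from at least 3 PTBP1 clusters with 90% on 1 strand. That inference gave the table's strand in 96.7% of 8826 genes. Named genes were the 10 with most shared sites, the 5 longest common stretches, up to 6 members per list by shared sites, the stretches nearest the rule, guided and noncoding overlaps, and the 5 genes with most unshared sites of both proteins. HSP90B1, SMC1A, STMN1, ATP6V0B, TMED2 and further list members outside that rule were chosen after their values were seen. A few genes that the rule names are not reported here. The shared sites, gene lists and measures were chosen with earlier results of these data known. Overlap code was tested on simulated intervals. Python 3.11.15, pandas 2.3.3 and scipy 1.17.1 were used.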

Additional observations from a re-analysis of the deposited data

How the results depend on the processing

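No paired analysis was possible because each group has 1 site list, so no value comes from a test across libraries, and for the same reason no library could be left out. The share of dPspCas13b sites that were shared, 11.7%, was 9.53% when the overlap had to reach 0.5 of the shorter site or when the dPspCas13b midpoint had to lie inside, and 7.74% for 0.5 of both sites. It was 10.6% with touching sites merged, 7.84% with sites of 75 to 200 nt and 7.42% with 51 nt around each midpoint. Shared sites overlapped PTBP1 in 58.4% and unshared ones in 40.7% with 51 nt around the midpoint. In the smaller lists these were 48.9% and 30.3% (100000 cells), 46.7% and 27.1% (10000) and 15.6% and 7.52% (1000). Unshared sites stood at 46.7% when merged, 41.5% with 1 site per gene and 62.8% in genes with a shared site. For sites shared by 0.5 of both sites, the share in the last 2000 nt was 48.6% (43.3% to 53.9%). For the remaining sites it was 46.7% (45.2% to 48.2%), inside that interval. When merged it was 49.7% for shared and 41.2% for unshared sites, and with 1 site per gene 55.1% and 43.1%. Windows of 500, 1000 and 5000 nt gave 22.6%, 40.2% and 73.1% for shared and 16.0%, 29.7% and 66.6% for unshared sites. The minus-strand share was 60.1% for shared and 52% for unshared sites when merged. With 1 site per gene these were 56.8% (50.8% to 62.7%) and 52.2% (49.9% to 54.4%), and the intervals overlap. Unshared sites stood at 59.4% in genes with a shared site. Guided lists met 3.75% of unshared dPspCas13b sites in those genes, above the 3.09% of shared ones, so that order turned. For dRfxCas13d sites it did not, with 0.82% and 3.80%. In the other settings run, PTBP1 overlap, the last 2000 nt and the minus strand included, shared sites kept the higher share. The strand measure and the comparison within genes were added after seeing the data. Of the alternative values, 49 stayed inside the 95% interval of the reported value, or within 1.5 times a reported count.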
